A study of Mus musculus with 4 samples.

Results

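RNA of the injured spinal cord was compared between ApoE3 and ApoE4 mice at 7 days post injury (dpi). All genes that the deposited table lists for this comparison were taken, and those with a mean of at least 1 FPKM over both groups were kept, which left 13949 of 14125 genes. FPKM are fragments normalised to the length of the transcript and to the mapped fragments of the library, a level that can be compared between genes. The comparison takes 14127 of the 25601 entries of the table and 2 of its 4 groups, and the other groups are the same genotypes at 21 dpi.

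Both groups were male mice aged 3 to 5 months whose own Apoe gene had been exchanged for human ApoE3 or ApoE4 coding sequence (targeted replacement). Both received a contusion of 50 kdyne at thoracic level T9, and a segment of about 4 mm around the lesion was taken for RNA-seq. The methods give 3 mice per genotype and time point, while the table holds 1 value per gene and group. No replicate check or test was therefore made here, and the p-values and q-values that the authors deposited were not used. No uninjured cord was analysed here, so the values compare injured tissue of both genotypes and do not say what the injury did.

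The genotype of the value columns can be read in a second way. The comparison is named ApoE3 versus ApoE4, and the values were taken in that order, as in the study. The numbering of the columns would pair each value with the other genotype, and every direction given here would then be the opposite. Genotype, library and any difference in how the mice of each group were handled cannot be told apart.

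Apolipoprotein E is a lipid carrier that astrocytes, microglia and macrophages secrete, and it delivers cholesterol to cells through receptors of the LDL receptor family. A contusion kills neurons and glia at the impact site, after which blood monocytes enter and become macrophages that clear myelin, astrocytes form a border, and fibroblasts and pericytes lay down a collagen-rich scar. Type I interferon signalling is a separate arm of the innate response, in which a secreted interferon binds its receptor and transcription factors downstream of it switch on a large set of antiviral genes.

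The levels of both groups were close over the whole transcriptome. Summed over all entries of this comparison, kept or not, the level was 1669387 FPKM in ApoE3 and 1669584 in ApoE4. The median over the kept genes was 33.8 FPKM in ApoE3 and 33.9 in ApoE4. Each difference between genotypes is given as a log2 ratio, log2((FPKM ApoE3 + 1)/(FPKM ApoE4 + 1)), in which a positive value means higher in ApoE3. Where a pair of FPKM values follows a gene, the first is that of ApoE3. The median ratio was 0.0018, and 7027 genes lay above 0 and 6922 below it. The central 90% of ratios ran from -0.37 to 0.34. A difference of at least 1.3-fold, a ratio of 0.38 or more in size, is the fold of the study's methods and is used for all counts here. By it 503 genes were higher in ApoE3, which is 3.61% of the kept genes, and 649 were higher in ApoE4, which is 4.65%. The remaining 12797 genes, 91.7%, were within 1.3-fold.

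The spread of the ratio depended on the level. Among 925 genes with a mean of 1 to 3 FPKM, the central 90% ran from -0.52 to 0.48 and 16.9% were past 1.3-fold. Among 3288 genes with at least 100 FPKM, it ran from -0.30 to 0.28 and 4.23% were past that fold. A ratio of a given size was therefore less usual at a high level than at a low one.

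**Figure D1:**
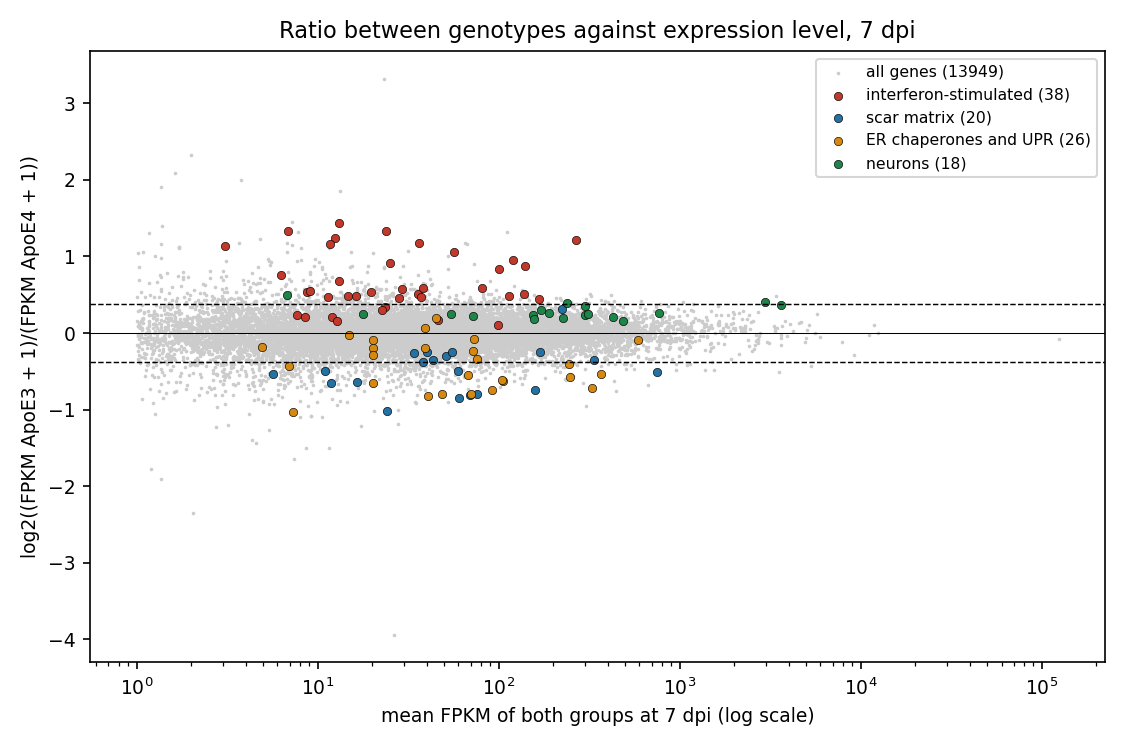
Log2 ratio of ApoE3 over ApoE4 (vertical axis) against mean FPKM on a log axis (horizontal) for the 13949 kept genes. Grey points are all kept genes. Coloured points mark gene lists, with interferon-stimulated genes in red and scar matrix proteins in blue. Chaperones and unfolded protein response genes of the endoplasmic reticulum are in orange, and neuronal markers are in green. Dashed lines mark 1.3-fold in either direction. The cloud is widest at 1 to 3 FPKM, where 16.9% of genes are past the fold.

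The markers of the labelled tissue were present in both groups. Myelin basic protein Mbp stood at 120571 FPKM in ApoE3 against 127575 in ApoE4, the astrocyte filament Gfap at 12395 FPKM in ApoE3 against 12386 in ApoE4, and the neuronal microtubule protein Map2 at 4119 FPKM in ApoE3 against 3184 in ApoE4. All 12 Hox genes of the thoracic segments that were looked up were kept, with a median ratio of 0.04 and none past 1.3-fold. The highest of them was Hoxb8, with 241 FPKM in ApoE3 against 226 in ApoE4. Of 2 Hox genes of more caudal segments, Hoxa10 had 8.07 FPKM in ApoE3 against 5.68 in ApoE4, and Hoxc10 had 7.19 FPKM in ApoE3 against 7.27 in ApoE4. In bulk tissue, fewer cells of a type and less RNA per cell cannot be told apart, and this holds for every list of cell markers. Of 18 liver genes only the retinol carrier Rbp4 was kept, with 2.61 FPKM in ApoE3 against 2.95 in ApoE4, and of 16 lymphocyte genes only Lck and Cd79b were kept. The other genes of these 2 lists were not found among the genes listed for this comparison, which does not show that they were low. The T cell kinase Lck had 11.5 FPKM in ApoE3 against 4.79 in ApoE4, and the B cell receptor chain Cd79b had 2.46 FPKM in ApoE3 against 3.28 in ApoE4. All 4 Y-linked genes looked up were kept, none of them past 1.3-fold, with a median of -0.02, and both groups are labelled male. Among 5 erythrocyte genes, markers of blood in the segment, the median ratio was 0.04, and the haemoglobin gene Hba-a1 had 146 FPKM in ApoE3 against 142 in ApoE4.

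Single genes with the largest ratios were partly at low levels. On the ApoE3 side, besides Apoc2, the transporter of organic cations Slc47a1 had 6.61 FPKM in ApoE3 against 0.903 in ApoE4, and Csta2, an inhibitor of cysteine proteases, had 2.75 FPKM in ApoE3 and was listed at 0 in ApoE4. G530011O06Rik, a long noncoding RNA, had 11.02 FPKM in ApoE3 against 3.40 in ApoE4, and Agr3, a relative of the protein disulfide isomerases, had 2.45 FPKM in ApoE3 against 0.309 in ApoE4. The predicted transcript LOC115488051 had 21.3 FPKM in ApoE3 against 5.17 in ApoE4, while LOC115488712 and LOC115490469 were listed at 4.02 and 3.25 FPKM in ApoE3 and at 0 in ApoE4. Interferon-induced Oasl1, with 19.7 FPKM in ApoE3 against 6.64 in ApoE4, and Rsad2 complete these 10 genes. On the ApoE4 side, Serpina3m, with 2.37 against 50.7 FPKM, was followed by LOC115488601 with 4.11 FPKM, the small nucleolar RNA Snord89 with 2.75 FPKM and LOC115487936 with 2.42 FPKM, all 3 listed at 0 in ApoE3. Lrmda, a gene of melanocyte differentiation, had 3.08 FPKM in ApoE3 against 11.7 in ApoE4, and Mycbpap, which is expressed in ciliated cells, had 5.56 FPKM in ApoE3 against 17.6 in ApoE4. The microRNA gene Mir8094 had 4.01 FPKM in ApoE3 against 13.2 in ApoE4, the noncoding Gm10046 had 2.01 FPKM in ApoE3 against 7.18 in ApoE4, the small nucleolar RNA Snora17 had 1.93 FPKM in ApoE3 against 6.73 in ApoE4, and the collagen chain Col10a1 had 2.74 FPKM in ApoE3 against 7.98 in ApoE4. Several of these transcripts are noncoding or only predicted.

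Among genes with at least 100 FPKM the picture was different, since 4 of the 5 largest ratios on the ApoE3 side belonged to interferon-induced genes. The largest was that of Mid1, a ubiquitin ligase bound to microtubules, with 159.9 FPKM in ApoE3 against 63.2 in ApoE4 and a ratio of 1.33. At 21 dpi Mid1 was also higher in ApoE3, with 81.1 against 52.2 FPKM. Ifit3 and Irf7 followed, then Oasl2 with 181 against 98.8 FPKM and Rtp4 with 129 against 71.7 FPKM. On the ApoE4 side the first was the calcium-dependent membrane-binding protein Anxa4, with 207 FPKM in ApoE3 against 401 in ApoE4 and a ratio of -0.95. It was followed by the scavenger receptor Stab1 with 329 FPKM in ApoE3 against 559 in ApoE4, by the matrix protein Postn with 119 FPKM in ApoE3 against 199.97 in ApoE4, by the chaperone Hspa5 with 249 FPKM in ApoE3 against 409.8 in ApoE4, and by Selenos, a membrane protein of the endoplasmic reticulum that helps to remove misfolded proteins, with 77.6 FPKM in ApoE3 against 127 in ApoE4. Stab1 is a gene of the macrophage list, Postn of the scar matrix list and Hspa5 of the chaperone list, all described further on.

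Gene lists were used to describe pathways and cell types. Each count of list members past 1.3-fold is to be read beside the shares over all kept genes. These are 3.61% higher in ApoE3 and 4.65% higher in ApoE4. Of 56 lists with at least 5 kept genes, 4 had a median at least 1.3-fold higher in ApoE3 and 4 a median at least 1.3-fold higher in ApoE4, while 19 had a median within 0.1 of 0. With a pseudocount of 5 these numbers were 3 in ApoE3 and 1 in ApoE4, and the lists under the fold were the small structural RNAs at 0.21, scar matrix at -0.36, the endoplasmic reticulum list at -0.36 and chemokines at -0.28. Some genes are in several lists.

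**Figure D2:**
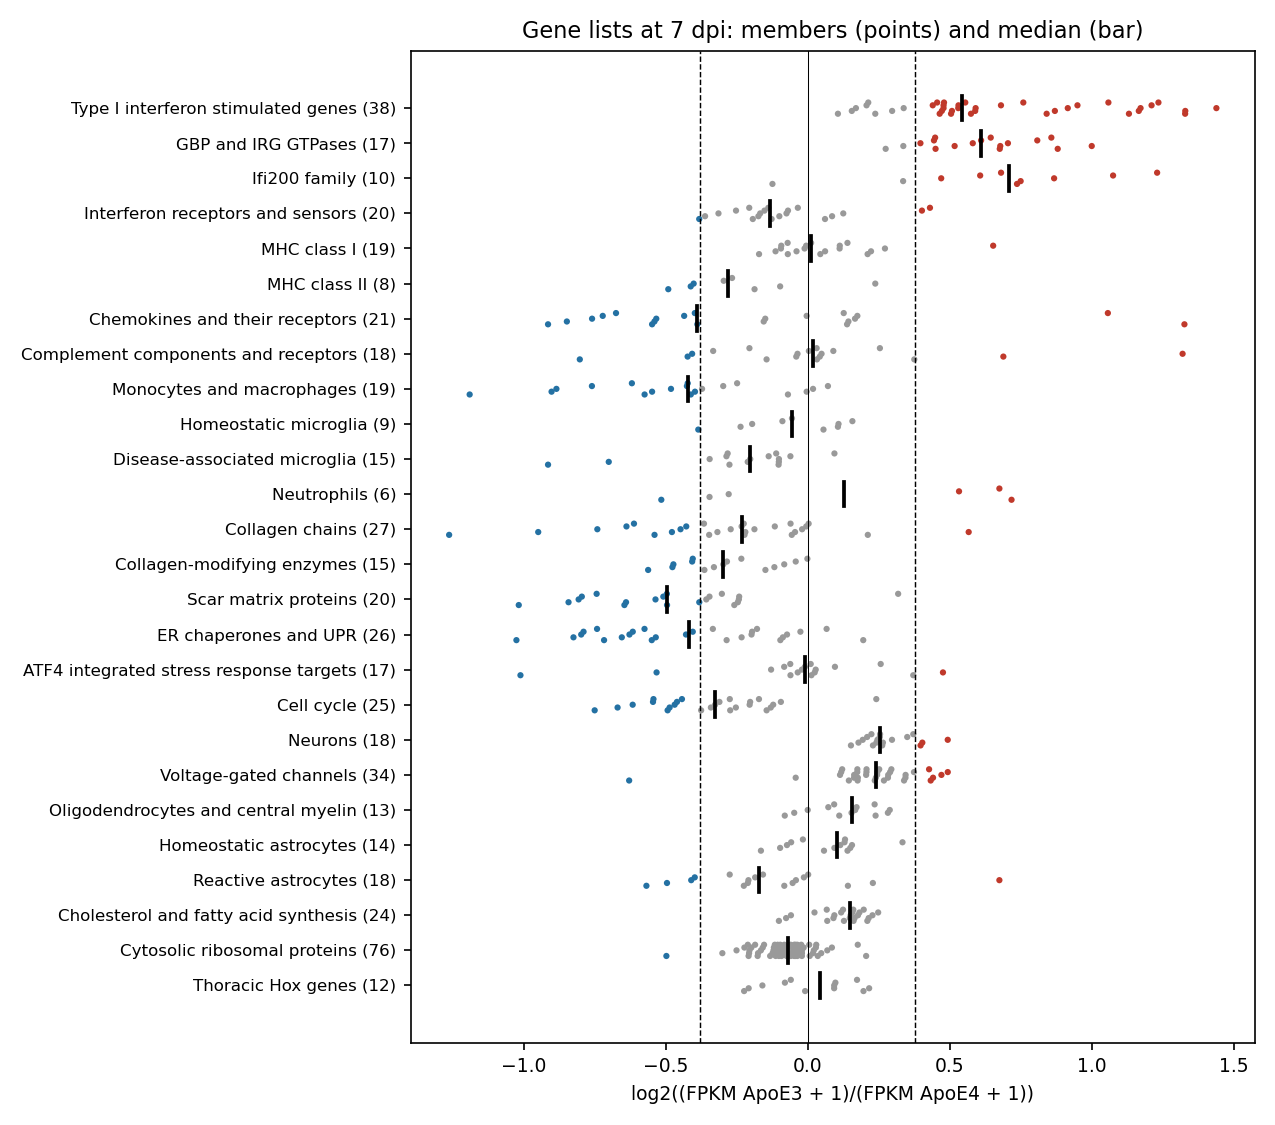
Log2 ratio of ApoE3 over ApoE4 (horizontal axis) of every kept member of 26 of the lists, 1 point per gene, with the list median as a bar and the number of genes in brackets. Red points are at least 1.3-fold higher in ApoE3, blue points at least 1.3-fold higher in ApoE4, and the dashed lines mark that fold; the medians of the interferon-stimulated, GTPase and Ifi200 lists lie to the right of 0, at 0.54, 0.61 and 0.71, and those of the scar matrix, chaperone and macrophage lists to its left, at -0.50, -0.42 and -0.42.

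Effector genes of the type I interferon response formed the largest block on the ApoE3 side. Of 38 kept genes of this list, 30 were at least 1.3-fold higher in ApoE3 and none in ApoE4, beside 3.61% and 4.65% over all genes. The median ratio was 0.54, all 38 lay above 0, from 0.11 to 1.44, and the summed level was 2257 FPKM in ApoE3 and 1376 in ApoE4. The highest gene was Ifit3, which with its relatives binds foreign RNA, at 373 FPKM in ApoE3 against 160.4 in ApoE4. Other IFIT members had lower levels and like ratios. Ifit2 had 50.7 FPKM in ApoE3 against 21.9 in ApoE4 and Ifit1 17.9 FPKM in ApoE3 against 7.02 in ApoE4, with ratios of 1.17 and 1.24.

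The effectors were of different kinds. Zbp1, a sensor of left-handed nucleic acid that can start necroptosis, had 34.6 FPKM in ApoE3 against 13.2 in ApoE4. The membrane-bound enzyme Rsad2, known as viperin, had 10.3 FPKM in ApoE3 against 3.50 in ApoE4, and the dynamin-like GTPase Mx1 had 16.7 FPKM in ApoE3 against 6.87 in ApoE4. Among the 2-5A synthetases, which make the activator of RNase L, Oas3 had 4.59 FPKM in ApoE3 against 1.55 in ApoE4 and a ratio of 1.13, while Oas1a with 42.5 against 29.7 FPKM had a ratio of 0.50. The ubiquitin-like modifier Isg15 had 33.3 FPKM in ApoE3 against 17.2 in ApoE4, and Usp18, which removes it from proteins and restrains the receptor, had 8.14 FPKM in ApoE3 against 4.40 in ApoE4. The tether of budding virus Bst2 had the smallest ratio of the list, 0.11, with 102 and 95.1 FPKM.

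Within the signalling chain the ratio was larger for the amplifier Irf7 than for Stat2 and Irf9. Irf7, which raises the output of interferon genes, had 159 FPKM in ApoE3 against 81.9 in ApoE4 and a ratio of 0.95. Stat2 had 17.3 FPKM in ApoE3 against 12.1 in ApoE4, with a ratio of 0.48. Its partner Irf9 had 49.3 and 43.7 FPKM and a ratio of 0.17, within 1.3-fold. The RNA sensors of the cytosol, which interferon itself induces, were past 1.3-fold. Ifih1 had 23.6 and 16.01 FPKM with a ratio of 0.53, and Ddx58 had 13.4 and 9.36 FPKM with a ratio of 0.47.

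Receptors and upstream sensors did not share the direction of the effectors. Of 20 such genes, 2 were at least 1.3-fold higher in ApoE3 and 1 in ApoE4, and the median was -0.13, with 15 genes below 0. The receptor chains Ifnar1 and Ifnar2 had 36.4 and 45.5 FPKM and 82.3 and 106 FPKM, with ratios of -0.32 and -0.36. The kinase Jak1, which sits on these chains, had 307 and 294 FPKM and a ratio of 0.06. The past-fold genes on the ApoE3 side were Tlr3, the endosomal receptor of double-stranded RNA, with 105 FPKM in ApoE3 against 78.97 in ApoE4, and Trex1, which degrades cytosolic DNA, with 45.98 FPKM in ApoE3 against 33.9 in ApoE4. The feedback inhibitor Socs3 was the gene past the fold on the ApoE4 side, with 36.8 FPKM in ApoE3 against 48.2 in ApoE4. The DNA sensor Cgas was low in both groups, with 2.59 and 2.78 FPKM.

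Families that interferon gamma also induces showed the same direction as the effectors. Of 17 kept guanylate-binding proteins and immunity-related GTPases, which attack the vacuoles of intracellular microbes, 15 were at least 1.3-fold higher in ApoE3 and none in ApoE4, with a median of 0.61 and all 17 above 0. Irgm1, a regulator of this family, had the highest level, with 147 FPKM in ApoE3 against 96.2 in ApoE4. Iigp1 had the largest ratio, with 70.8 and 34.9 FPKM, followed by Gbp4 with 24.8 against 13.03 FPKM and a ratio of 0.88. In the Ifi200 family of DNA-binding pyrin domain proteins, 8 of 10 kept genes were at least 1.3-fold higher in ApoE3, with a median of 0.71. Ifi213 had 43.4 FPKM in ApoE3 against 20.1 in ApoE4. The 2 genes within 1.3-fold were Ifi207, with 96.7 and 76.5 FPKM and a ratio of 0.34, and Aim2. Aim2, the inflammasome sensor of DNA, had the highest level in both groups, 239.7 and 261 FPKM. It was the only member below 0, with a ratio of -0.12.

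Antigen presentation did not follow. Of 19 genes of the MHC class I pathway, 1 was at least 1.3-fold higher in ApoE3 and none in ApoE4, with a median of 0.01. The heavy chain H2-K1 had 4719 and 5107 FPKM with a ratio of -0.11, its partner B2m 469.9 and 502 FPKM, and the peptide transporter Tap1 21.6 and 18.3 FPKM with a ratio of 0.22. The gene past the fold was the nonclassical H2-T24, with 46.96 FPKM in ApoE3 against 29.5 in ApoE4. Of 8 kept MHC class II genes, which present peptides from outside the cell, 3 were at least 1.3-fold higher in ApoE4 and none in ApoE3, with a median of -0.28. These were the chains H2-Eb1 with 22.9 and 32.6 FPKM and H2-Ab1 with 30.7 and 41.2 FPKM, and the invariant chain Cd74 with 72.3 and 95.9 FPKM. The median of the class II list was -0.41, past 1.3-fold, over those that averaged 10 FPKM or more.

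**Figure D3:**
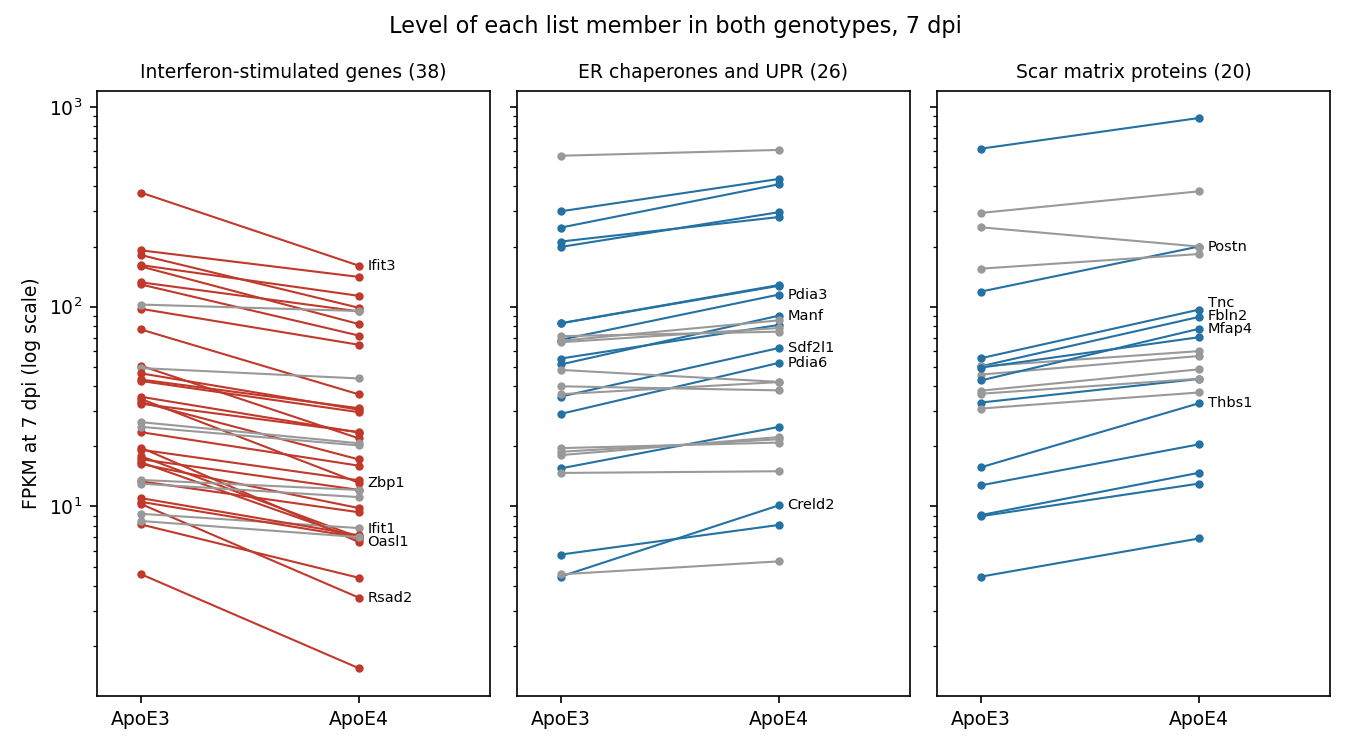
FPKM on a log axis in ApoE3 and ApoE4 for the kept interferon-stimulated genes, chaperones and unfolded protein response genes of the endoplasmic reticulum and scar matrix proteins, with a line joining both values of each gene. Grey lines are within 1.3-fold, red lines are at least 1.3-fold higher in ApoE3, blue lines at least 1.3-fold higher in ApoE4, and the 5 members with the largest ratio in each list are labelled; 30 of 38 lines are red in the first panel, and 14 of 26 and 12 of 20 are blue in the others.

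Promoters of these genes were searched for the interferon-stimulated response element, a sequence in the promoters of many genes that interferon induces. It was searched as GAAANNGAAA on both strands of the 250 bases before and 50 bases after each RefSeq gene start (GRCm38.p6). Over all 27025 genes of the promoter table, 3.99% held a match, and 3.85% of the 10969 kept genes with a promoter. A match was present in 15 of 28 interferon-stimulated genes with a promoter (53.6%), in 7 of 9 Ifi200 genes (77.8%) and in 9 of 10 guanylate-binding and immunity-related GTPase genes. It was present in 44 of 345 genes at least 1.3-fold higher in ApoE3 (12.8%) and in 16 of 486 higher in ApoE4 (3.29%). Outside the 3 interferon lists the share among genes higher in ApoE3 was 18 of 307, or 5.86%. Of the receptor and sensor list 1 of 18 held a match, of MHC class I genes 4 of 15, and of MHC class II genes 0 of 6. A match describes the letters of a promoter and does not show that a factor was bound there.

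The stretches shown here are those of the interferon-stimulated genes with a match that had the largest ratios, with 25 bases on each side of the match. Each is written 5′ to 3′ on the strand of its gene, and capitals mark 1 match, which begins with TTTC where the element lies on the opposite strand. The promoters of Ifit1, Ifit3 and Ifit3b hold 2 matches each, of which 1 is in capitals, and the second match of Ifit1 is left in lower case within its stretch. The Rsad2 stretch lies at chr12:26456538-26456597 on the minus strand, its match 120 bases before the gene start, and the gene had 10.3 against 3.50 FPKM with a ratio of 1.33. The Ifit1 stretch lies at chr19:34640760-34640819 on the plus strand, with 17.9 against 7.02 FPKM and a ratio of 1.24. The Ifit3 stretch lies at chr19:34583348-34583407 on the plus strand, with 373 against 160.4 FPKM and a ratio of 1.21. The Ifit3b stretch, at chr19:34607744-34607803 on the plus strand, has the same 60 bases as that of its paralog Ifit3, and the gene had 76.96 against 36.4 FPKM with a ratio of 1.06. The Oas3 stretch lies at chr5:120777700-120777759 on the minus strand, with 4.59 against 1.55 FPKM and a ratio of 1.13.
Rsad2: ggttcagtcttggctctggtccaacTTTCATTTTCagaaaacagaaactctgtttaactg
Ifit1: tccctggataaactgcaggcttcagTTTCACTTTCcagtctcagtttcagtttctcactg
Ifit3: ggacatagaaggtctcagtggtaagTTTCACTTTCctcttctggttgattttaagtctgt
Ifit3b: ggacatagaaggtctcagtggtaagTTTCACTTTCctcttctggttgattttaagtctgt
Oas3: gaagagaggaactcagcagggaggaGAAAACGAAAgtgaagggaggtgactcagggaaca

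**Figure D4:**
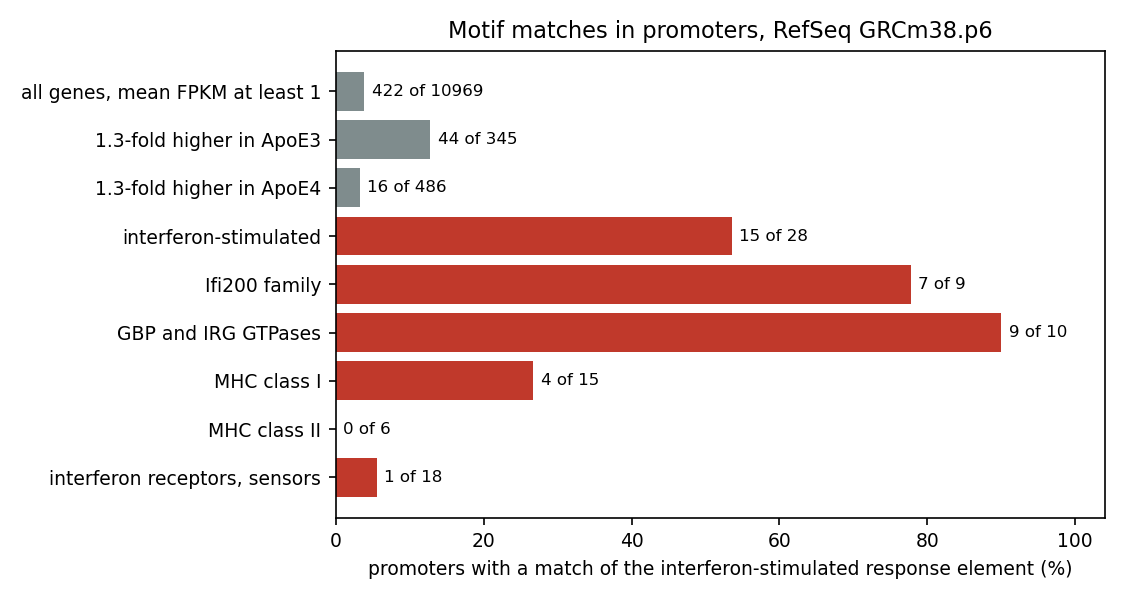
Percent of promoters with a match to the interferon-stimulated response element (horizontal axis), for all kept genes and the sets past 1.3-fold in grey and for gene lists in red, with the counts beside the bars. The bars of the interferon-stimulated, Ifi200 and GTPase lists stand at 53.6% or more, against 3.85% of the kept genes.

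Chemokines were divided between the genotypes. Of 21 kept chemokines and receptors, 11 were at least 1.3-fold higher in ApoE4 and 2 in ApoE3, with a median of -0.39, which was -0.16 without the minimum of 1 FPKM. The ApoE3 pair was Cxcl10, an interferon-induced attractant of T cells, with 34.2 FPKM in ApoE3 against 13.04 in ApoE4 and a ratio of 1.33, and the monocyte attractant Ccl12, with 9.48 FPKM in ApoE3 against 4.04 in ApoE4 and a ratio of 1.06. Cxcl10 also holds a match to the interferon element in its promoter. On the other side, Ccl6 had 24.03 FPKM in ApoE3 against 46.2 in ApoE4 and a ratio of -0.92. The platelet and macrophage chemokine Pf4 had 12.4 FPKM in ApoE3 against 21.1 in ApoE4, the membrane-bound scavenger chemokine Cxcl16 102 FPKM in ApoE3 against 138 in ApoE4, and the receptor Cxcr4 81.5 FPKM in ApoE3 against 107 in ApoE4. The receptor through which monocytes leave the marrow, Ccr2, had 12.7 and 12.8 FPKM, and the T cell attractant Ccl5 had 10.9 and 9.78 FPKM.

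A list of 15 genes of Toll-like receptor signalling and the inflammasome had all of its members below 0, 4 past 1.3-fold and a median of -0.21. It does not hold the nucleic acid receptors Tlr3, Tlr7 and Tlr9 of the sensor list, which lay above 0 with ratios of 0.40, 0.12 and 0.09. The co-receptor of lipopolysaccharide Cd14 had 20.4 FPKM in ApoE3 against 31.9 in ApoE4 and the inflammasome sensor Nlrp3 7.80 FPKM in ApoE3 against 10.9 in ApoE4. Of 24 interleukin and TNF family genes 23 lay below 0, 7 of them at least 1.3-fold higher in ApoE4, with a median of -0.24. The neurotrophic cytokines of the interleukin 6 family were among them, Clcf1 with 9.86 FPKM in ApoE3 against 19.3 in ApoE4 and Lif with 5.95 FPKM in ApoE3 against 10.2 in ApoE4. The classical inflammatory cytokines were low and close, with 3.37 and 3.51 FPKM for Tnf and 1.86 and 2.15 FPKM for Il1b.

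Complement genes went both ways, with a median of 0.02 over 18 genes, 2 at least 1.3-fold higher in ApoE3 and 3 in ApoE4. The recognition subunits of the classical pathway were higher in ApoE4, C1qa with 935 and 1254 FPKM and C1qb with 983 and 1305 FPKM, at ratios of -0.42 and -0.41. The central component C3, with 216 and 211 FPKM, and C4b, with 2721 and 2799 FPKM, were close. On the ApoE3 side were Cfb, the protease of the alternative pathway, with 10.5 FPKM in ApoE3 against 6.12 in ApoE4, and C5ar2, the second receptor of the C5a fragment, with 11.6 FPKM in ApoE3 against 4.03 in ApoE4 and a ratio of 1.32. The main C5a receptor C5ar1 had 30.7 and 25.6 FPKM, a ratio of 0.25.

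Macrophage genes stood higher in ApoE4 as a list. Of 19 kept genes, 12 were at least 1.3-fold higher in ApoE4 and none in ApoE3, with a median of -0.42, and their summed level was 8995 FPKM in ApoE3 and 12093 in ApoE4. Cd5l, an anti-apoptotic protein that macrophages secrete, had 36.3 FPKM in ApoE3 against 68.8 in ApoE4 and a ratio of -0.90, and the chitinase-like Chil3 had 5.30 FPKM in ApoE3 against 10.6 in ApoE4. The members differed among themselves. Adgre1, which encodes the F4/80 antigen, had 111 and 109.6 FPKM, and the monocyte antigen Ly6c2 had 36.96 and 38.9 FPKM, both within 1.3-fold.

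Microglial genes were closer. Of 9 kept homeostatic genes 1 was at least 1.3-fold higher in ApoE4, the Fc receptor-like Fcrls with 230.04 and 301 FPKM, and the median was -0.06. Tmem119, a membrane protein of resident microglia, had 72.8 and 83.6 FPKM, and the lysophosphatidylserine receptor Gpr34 52.1 and 50.1 FPKM. Of 15 genes of the disease-associated state 14 lay below 0, with a median of -0.20 and 2 at least 1.3-fold higher in ApoE4. These were Ccl6 and the integrin Itgax, with 20.3 and 33.7 FPKM, while the lipid-sensing receptor Trem2, which binds ApoE, had 459.8 and 561 FPKM and a ratio of -0.29.

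The machinery with which phagocytes digest and store material leaned the same way as the macrophage list. All 16 kept lysosomal genes lay below 0, with a median of -0.24 and 4 at least 1.3-fold higher in ApoE4. Acp5, an acid phosphatase of osteoclasts and macrophages, had 229 FPKM in ApoE3 against 359.7 in ApoE4, while the membrane protein Lamp1 had 754 and 798 FPKM, a ratio of -0.08. Of 25 genes of lipid uptake, storage and efflux 5 were at least 1.3-fold higher in ApoE4 and none in ApoE3, with a median of -0.17. The lipid droplet coat Plin2 had 800.4 FPKM in ApoE3 against 1119.7 in ApoE4, a ratio of -0.48, and the exporter Abca1, which loads lipid on ApoE, had 302 and 339.9 FPKM, a ratio of -0.17. The LDL receptor family members Lrp1 and Vldlr, which bind ApoE, had 256 and 308 FPKM and 94.8 and 83.9 FPKM.

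Iron genes differed among themselves. The ferritin light chain Ftl1, which stores iron, had 2911 FPKM in ApoE3 against 4136 in ApoE4 and a ratio of -0.51, and the heme oxygenase Hmox1 had 65.4 FPKM in ApoE3 against 90.6 in ApoE4 and a ratio of -0.46. The lysosomal iron exporter of phagocytes Slc11a1 had 73.4 FPKM in ApoE3 against 106 in ApoE4. Going the other way within 1.3-fold were the iron exporter Slc40a1, with 32.2 and 26.8 FPKM, and the transferrin receptor Tfrc, with 48.4 and 41.4 FPKM. Over 14 such genes the median was -0.10, with 4 at least 1.3-fold higher in ApoE4 and 1, Lcn2, higher in ApoE3. The other antioxidant genes of NRF2 did not follow Hmox1, with 14 of 15 within 1.3-fold and a median of -0.02.

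Scar matrix was the list with the lowest median among the lists of at least 5 genes. Of 20 kept matricellular and matrix proteins, 12 were at least 1.3-fold higher in ApoE4 and none in ApoE3, with a median of -0.50, and 19 lay below 0. The microfibril protein Mfap4 had 42.7 FPKM in ApoE3 against 77.5 in ApoE4, a ratio of -0.84, and the basement membrane protein Fbln2 had 50.3 FPKM in ApoE3 against 88.8 in ApoE4, a ratio of -0.81. Ecm1 had the highest level, with 617 FPKM in ApoE3 against 879 in ApoE4. The exception was elastin, Eln, which was higher in ApoE3 within 1.3-fold, with 249.6 and 199.99 FPKM.

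Collagen chains leaned to ApoE4 less evenly. Of 27 kept chains, 9 were at least 1.3-fold higher in ApoE4 and 1 in ApoE3, with a median of -0.23 and 24 below 0. Among the fibril-forming chains, Col3a1 had 178 FPKM in ApoE3 against 243 in ApoE4 and Col1a1 212 and 269.96 FPKM, with ratios of -0.45 and -0.35. The chain of basement membranes with the highest level, Col4a1, had 458 and 553 FPKM, a ratio of -0.27. Col7a1, which anchors epithelia, had 5.70 and 11.9 FPKM, and Col5a1, which sets the width of fibrils, had 29.2 and 49.5 FPKM. The chain higher in ApoE3 was the membrane-bound Col13a1, with 26.5 FPKM in ApoE3 against 17.5 in ApoE4. In the type VI collagen, Col6a3 had 186 and 285 FPKM, a ratio of -0.61, while its partner chain Col6a1 had 44.7 and 45.4 FPKM, a ratio of -0.02.

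The enzymes that modify collagen all lay below 0, 15 of 15, with a median of -0.30 and 5 at least 1.3-fold higher in ApoE4. Lox, which cross-links fibres, had 14.8 FPKM in ApoE3 against 22.4 in ApoE4, and the lysyl hydroxylase Plod2 20.4 FPKM in ApoE3 against 28.8 in ApoE4. Among 21 proteases and inhibitors, 7 were at least 1.3-fold higher in ApoE4 and 2 in ApoE3, with a median of -0.21. The plasminogen activator Plau had 47.7 FPKM in ApoE3 against 71.9 in ApoE4 and the macrophage elastase Mmp12 89.6 FPKM in ApoE3 against 127 in ApoE4. On the ApoE3 side stood the stromelysin Mmp3, with 1.82 and 0.768 FPKM, and the collagenase Mmp13, with 6.01 and 3.84 FPKM. The tissue inhibitor Timp2 was nearly equal, with 275 and 274 FPKM.

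Of 17 genes of the TGF-beta pathway, which drives matrix production in fibroblasts, 3 were at least 1.3-fold higher in ApoE4 and 1 in ApoE3, with a median of -0.11. The ligand Tgfb1 had 20.2 FPKM in ApoE3 against 26.98 in ApoE4, and Nrros, which holds latent TGF-beta on myeloid cells, had 169.8 FPKM in ApoE3 against 239 in ApoE4. The transducers Smad2 and Smad3 had 34.6 and 35.1 FPKM and 23.3 and 24.1 FPKM. The activin subunit Inhba was the gene higher in ApoE3, with 17.7 and 12.9 FPKM.

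Chaperones and unfolded protein response genes of the endoplasmic reticulum formed a further block on the ApoE4 side. Of the 26 genes of this list, 14 were at least 1.3-fold higher in ApoE4 and none in ApoE3, with a median of -0.42, which was -0.36 with a pseudocount of 5, and the summed level was 2364 FPKM in ApoE3 and 3177 in ApoE4. The main chaperone of the lumen, Hspa5, known as BiP, had a ratio of -0.72. The lectin chaperone Calr had 300.1 FPKM in ApoE3 against 436 in ApoE4, and Hsp90b1, the HSP90 of this compartment, 199 FPKM in ApoE3 against 297 in ApoE4. The disulfide isomerase Pdia6 had 29.1 FPKM in ApoE3 against 52.3 in ApoE4, a ratio of -0.83, and the secreted stress protein Manf 51.4 FPKM in ApoE3 against 90.1 in ApoE4, a ratio of -0.80. The largest ratio was that of Creld2, -1.03, with 4.46 and 10.1 FPKM.

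The same list holds sensors and regulators of the unfolded protein response. The kinase Ern1 had 4.58 and 5.31 FPKM and the factor Atf6 39.95 and 38.1 FPKM, both within 1.3-fold. The factor Xbp1, which switches on chaperone genes, had 66.4 and 78.2 FPKM, a ratio of -0.23, and the degradation factor Herpud1 had 48.3 and 42.02 FPKM, a ratio of 0.20. The factor Creb3l1 was past 1.3-fold, with 5.75 and 8.09 FPKM and a ratio of -0.43, while the chaperone Canx was within it, with 569 and 609 FPKM and a ratio of -0.10. Targets of the ATF4 branch had a median of -0.01 over 17 genes, with 1 at least 1.3-fold higher in ApoE3 and 2 in ApoE4. Atf4 itself had 117 and 116 FPKM, while the apoptosis-related factor Ddit3 was higher in ApoE3, with 129.7 and 92.95 FPKM, and the stress hormone Gdf15 in ApoE4, with 13.2 and 27.6 FPKM. Of 12 cytosolic heat shock genes 3 were at least 1.3-fold higher in ApoE4, the inducible Hspa1a with 25.2 and 40.4 FPKM, Hspa1b with 3.15 and 5.73 FPKM and the small chaperone Hspb1 with 84.1 and 125 FPKM, and the median was -0.07.

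The endoplasmic reticulum stress element, which ATF6 and the factor NF-Y bind together, was searched in the same promoters as CCAAT, 9 bases of any kind, CCACG (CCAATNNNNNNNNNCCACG), on both strands. It was found in 37 of 27025 genes, 0.137%, and in 8 of 22 genes of the chaperone list with a promoter, 36.4%. The 8 were Calr, Canx, Creld2, Dnajc3, Hsp90b1, Hspa5, Pdia6 and Syvn1, and none of the 22 held the interferon element. It was found in 8 of 486 genes at least 1.3-fold higher in ApoE4 (1.65%) and in 1 of 345 higher in ApoE3 (0.29%). The stretches of the 5 with the largest ratios are shown in the same way, with capitals for 1 whole match of 19 bases, and the promoter of Hsp90b1 holds 2. The Creld2 stretch lies at chr15:88819495-88819563 (plus strand), with 4.46 against 10.1 FPKM. The Pdia6 stretch lies at chr12:17266466-17266534 (plus strand), with 29.1 against 52.3 FPKM. The Hspa5 stretch lies at chr2:34772000-34772068 (plus strand), its match 65 bases before the gene start, with 249 against 409.8 FPKM. The Hsp90b1 stretch lies at chr10:86705613-86705681 (minus strand), with 199 against 297 FPKM, and the Calr stretch at chr8:84847050-84847118 (minus strand), with 300.1 against 436 FPKM. In Creld2 and Calr the match lies on the opposite strand.
Creld2: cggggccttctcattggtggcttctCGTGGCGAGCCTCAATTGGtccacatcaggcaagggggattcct
Pdia6: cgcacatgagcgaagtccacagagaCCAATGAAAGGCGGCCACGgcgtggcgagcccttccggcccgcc
Hspa5: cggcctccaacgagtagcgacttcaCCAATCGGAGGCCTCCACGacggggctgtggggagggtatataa
Hsp90b1: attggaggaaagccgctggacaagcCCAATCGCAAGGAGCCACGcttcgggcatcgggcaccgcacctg
Calr: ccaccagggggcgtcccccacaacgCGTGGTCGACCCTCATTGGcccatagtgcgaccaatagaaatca

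Cell cycle genes were higher in ApoE4 as a list. Of 25 genes, 24 lay below 0 and 10 were at least 1.3-fold higher in ApoE4, with a median of -0.33. The topoisomerase Top2a, which untangles chromosomes, had 59.7 FPKM in ApoE3 against 92.1 in ApoE4, a ratio of -0.62, and the mitotic kinase Aurkb 7.39 FPKM in ApoE3 against 13.1 in ApoE4, a ratio of -0.75. The replication helicase subunit Mcm5 had 10.2 and 15.3 FPKM, and the proliferation antigen Mki67 29.6 and 35.98 FPKM, a ratio of -0.27. Which cells divided was not measured. The exception was the G1 cyclin Ccne1, with 7.49 and 6.18 FPKM.

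Neuronal genes lay on the ApoE3 side by small ratios. All 18 kept neuronal markers lay above 0, with a median of 0.25 and 3 at least 1.3-fold higher in ApoE3, and 6 were above the central 90% of genes of like level. Their summed level was 11703 FPKM in ApoE3 and 9281 in ApoE4. Likewise 22 of 24 genes of the presynaptic vesicle cycle lay above 0, with a median of 0.24 and 3 at least 1.3-fold higher in ApoE3. The release clamp Cplx1 had 337 FPKM in ApoE3 against 257 in ApoE4 and the vesicle protein Sv2c 79.9 FPKM in ApoE3 against 58.96 in ApoE4. Of 30 receptors for glutamate, GABA and glycine 29 lay above 0, with a median of 0.19 and 5 at least 1.3-fold higher in ApoE3. The GABA-A subunit Gabrg3 had 6.77 and 3.91 FPKM. The inhibitory glycine receptor subunit Glra1, of motor circuits in the cord, had 54.5 and 38.8 FPKM, a ratio of 0.48.

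Ion channels of neurons followed, with 32 of 34 genes above 0, a median of 0.24, 5 at least 1.3-fold higher in ApoE3 and 1 in ApoE4. The sodium channel subunit Scn3b had 29.4 and 20.6 FPKM, the calcium channel subunit Cacna2d1, the target of gabapentin, 81.4 and 58.4 FPKM, and the pore subunit Cacna1e 170.1 and 126 FPKM. The gene on the ApoE4 side was Cacna1a, the P/Q-type calcium channel of nerve terminals, with 339 FPKM in ApoE3 against 526 in ApoE4 and a ratio of -0.63. Among the neuronal markers, Chat, which makes acetylcholine, had 8.08 FPKM in ApoE3 against 5.45 in ApoE4, and Gad1, which makes GABA in interneurons, had 273 FPKM in ApoE3 against 207 in ApoE4.

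Genes that report injury or activity were mixed. Of 14 regeneration-associated genes none was past 1.3-fold, with a median of 0.02 and 7 on each side of 0, and the median was -0.12 over those that averaged 10 FPKM or more. The growth cone protein Gap43 had 117 and 96.3 FPKM and the small proline-rich protein Sprr1a, which injured neurons make, 109 and 87.2 FPKM, with ratios of 0.28 and 0.32. The injury factor Atf3 had 32.9 and 39.04 FPKM and Jun 38.3 and 48.3 FPKM, with ratios of -0.24 and -0.33, and glia and macrophages also make both. Of 13 immediate early genes 11 lay below 0, 3 of them at least 1.3-fold higher in ApoE4, with a median of -0.29, which was -0.18 with a pseudocount of 5. These 3 were Egr2 with 33.1 and 51.6 FPKM, Nr4a1 with 24.8 and 37.97 FPKM and Ier2 with 9.03 and 12.7 FPKM, and glia and macrophages also express them. Arc, which neurons make on synaptic activity, had 18.2 and 16.7 FPKM.

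Glial genes were within 1.3-fold in most cases. None of 13 myelin genes passed that fold, with a median of 0.15, from Mbp, the most abundant gene of the list, with a ratio of -0.08, to the late marker Opalin, with 18.3 and 14.8 FPKM and a ratio of 0.29. None of 14 oligodendrocyte precursor genes passed it either, with a median of -0.14. The growth factor receptor Pdgfra had 85.5 and 95.4 FPKM. Of 14 genes of resting astrocytes none was past 1.3-fold, with a median of 0.10, and the water channel Aqp4 had 2689 and 2415 FPKM. Of 18 reactive astrocyte genes 4 were at least 1.3-fold higher in ApoE4 and 1 in ApoE3, with a median of -0.17, while Gfap had a ratio of 0.00. The membrane protein gene Emp1 had 115 and 163 FPKM and the filament protein Vim 528 and 611 FPKM.

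Enzymes of cholesterol and fatty acid synthesis, which astrocytes and oligodendrocytes run, showed small ratios, most of them above 0. Of 24 genes 21 lay above 0 and none was past 1.3-fold, with a median of 0.15. The enzyme Sc5d, near the end of the pathway, had 54.8 and 46.03 FPKM. The factor Srebf2, which controls these genes, had 67.1 and 57.9 FPKM. Ratios of this size were usual at these levels, since none of the 24 lay outside the central 90% of genes of like level.

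Vessel genes were mixed. Of 21 endothelial and barrier genes 4 were at least 1.3-fold higher in ApoE4 and 1 in ApoE3, beside 4.65% and 3.61% over all genes. Their median was -0.04. Vwf, the clotting factor stored in endothelium, had 21.6 FPKM in ApoE3 against 35.4 in ApoE4, and the tight junction protein Ocln 17.6 FPKM in ApoE3 against 23.9 in ApoE4. The drug exporter Abcb1a of the barrier was higher in ApoE3, with 17.2 and 12.5 FPKM, while the main junction protein Cldn5 had 54.99 and 62.2 FPKM. Of 17 pericyte and fibroblast genes 4 were at least 1.3-fold higher in ApoE4 and 1 in ApoE3, with a median of -0.09, and the pericyte receptor Pdgfrb had 45.8 and 51.7 FPKM. Of 13 cilia genes of the ependyma 3 were at least 1.3-fold higher in ApoE3 and 1 in ApoE4, with a median of -0.01, and their master factor Foxj1 had 36.4 and 36.8 FPKM. The cilia median was -0.13 over those that averaged 10 FPKM or more.

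Large housekeeping complexes were close. Of 76 cytosolic ribosomal proteins 75 were within 1.3-fold, with a median of -0.07. None of 75 oxidative phosphorylation subunits and none of 34 proteasome subunits was past it, with medians of 0.05 and 0.03. The same held for 17 genes of hypoxia and glycolysis, with a median of 0.05, and for 16 clock genes, with a median of 0.09. The clock gene Per2 had 10.4 and 11.9 FPKM, and the hypoxia target Vegfa had 247 and 215 FPKM.

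The Apoe gene is not among the genes analysed here at 7 dpi, so its level is not given. Both groups carry human coding sequence in its place, and a level alone would not say which isoform it encodes. Of 10 kept neighbours of Apoe, Apoc2 was past 1.3-fold on the ApoE3 side and Bcl3 on the ApoE4 side. The apolipoprotein genes that lie between Apoe and Apoc2 were close, Apoc1 with 89.9 and 102 FPKM and Apoc4 with 5.11 and 4.39 FPKM. Clptm1, on the other side of Apoc2, had 294 and 271 FPKM, and Bcl3, beyond Apoe, had 25.96 FPKM in ApoE3 against 34.2 in ApoE4. Apoc2 itself, the activator of lipoprotein lipase, had 43.01 against 3.40 FPKM and a ratio of 3.32. Over these neighbours the median was -0.15. In the Serpina3 cluster of protease inhibitors all 4 kept genes lay below 0, 3 of them past 1.3-fold, with a median of -0.67. Serpina3n, the main member in reactive astrocytes, had 821 FPKM in ApoE3 against 1083 in ApoE4, and Serpina3g 8.39 FPKM in ApoE3 against 17.1 in ApoE4, with ratios of -0.40 and -0.95.

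Among annexins and S100 proteins, which bind calcium and membranes, 4 of 17 were at least 1.3-fold higher in ApoE4 and 2 in ApoE3, with a median of -0.12. Besides Anxa4, these were S100a11 with 145 and 218 FPKM, Anxa1, a mediator of resolving inflammation, with 26.6 and 37.2 FPKM, and Anxa2 with 62.1 and 82.2 FPKM. The highest S100 gene, S100a16, had 966 and 1014 FPKM. Of 8 genes of Fc gamma receptors, their adaptor chain and signalling partners 1, the receptor Fcgr4, was at least 1.3-fold higher in ApoE4, with a median of -0.24, and Fcgr3 had 808 and 935 FPKM.

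Markers of other cells in the segment were only partly kept. Most of those missing were not listed for this comparison, which does not show that they were low. Of 3 kept platelet genes 2 were at least 1.3-fold higher in ApoE4, with a median of -0.72, which was -0.46 with a pseudocount of 5, and the von Willebrand receptor subunit Gp1bb had 1.55 and 3.99 FPKM. Of 9 kept Schwann cell genes the median was -0.04, with 1 gene past 1.3-fold in ApoE3 and 2 in ApoE4. Of 18 skeletal muscle genes 7 were kept, with 70.9 FPKM in sum in ApoE3 and 49.2 in ApoE4, a median of 0.18, and the troponin Tnnt3 as the most abundant with 45.7 and 26.5 FPKM. This median was 0.09 with a pseudocount of 5 and 0.76 over the genes that averaged 10 FPKM or more. Of 5 kept sensory ganglion genes, the neuropeptide Calca had 377 and 269 FPKM, and the median was 0.17. Of 16 neutrophil genes 6 were kept, with 3 at least 1.3-fold higher in ApoE3, 1 in ApoE4 and a median of 0.13. That median moved with the processing, from 0.05 with a pseudocount of 5 to 0.67 with a mean FPKM of at least 10, and the summed level was 539.6 FPKM in ApoE3 and 627 in ApoE4. Most of that sum was the single gene Csf3r, with 485 FPKM in ApoE3 against 589 in ApoE4, so its direction is that of 1 gene. The part of these cells in the other ratios was not tested. Of the genes for which RT-qPCR or immunofluorescence also exists 10 were kept, of which 1 was past 1.3-fold in each direction. These were the synaptic protein Snap25, with 3366 and 2545 FPKM and a ratio of 0.40, and the cross-linking enzyme Tgm2, with 32.5 and 51.5 FPKM and a ratio of -0.65.

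Short RNAs differed more often than messenger RNAs. Of 30 kept small structural or micro RNAs 15 were past 1.3-fold in either direction, 9 higher in ApoE3 and 6 in ApoE4, which is 50.0%, against 7.93% of 13376 protein-coding genes and 13.6% of 368 long noncoding RNAs. The median over all 30 was 0.0091. These shares were not matched for level. Of all kept genes, 16.9% were past the fold at 1 to 3 FPKM, against 4.23% at 100 FPKM or more. Among 11 named small structural RNAs the median was 0.41, which was 0.21 with a pseudocount of 5 and 1.16 over those that averaged 10 FPKM or more. The signal recognition particle RNAs Rn7s1 and Rn7s2, near-identical copies, had 90.4 and 39.3 FPKM and 92.7 and 40.8 FPKM, and Rn7sk, which restrains transcription elongation, had 97.1 and 73.00 FPKM. The RNase P RNA Rpph1 had 10.5 and 4.99 FPKM. How far such RNAs were captured in each library was not tested.

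At 21 dpi the median ratio of all kept genes was -0.42, against 0.0018 at 7 dpi, so medians of lists at both times are given centred on that median, over genes kept at both times. The median of 32 interferon-stimulated genes was 0.54 at 7 dpi and -0.31 at 21 dpi, and that of the guanylate-binding and GTPase list was 0.64 and -0.14. Both were also below 0 at 21 dpi without centring, at -0.73 and -0.56. For 17 collagen chains it was -0.23 and 0.42, and for 8 MHC class II genes -0.28 and 0.54, while without centring the values at 21 dpi were 0.0016 and 0.11. Scar matrix had medians of -0.50 and 0.13, and its sign at 21 dpi depended on the centring, since it was -0.29 without it. The endoplasmic reticulum list had -0.43 and -0.14, and -0.56 at 21 dpi without centring. Markers of other cells lay on both sides at 21 dpi by centred values. They had medians of 1.85 for 9 Schwann cell genes, 0.79 for 13 cilia genes and 0.33 for 16 pericyte and fibroblast genes, the last of which was -0.09 without centring, against -2.90 for 6 skeletal muscle genes and -0.33 for 5 neutrophil genes. Their part in the other values was not tested. These differences between time points were not tested, and they come from different mice.

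**Figure D5:**
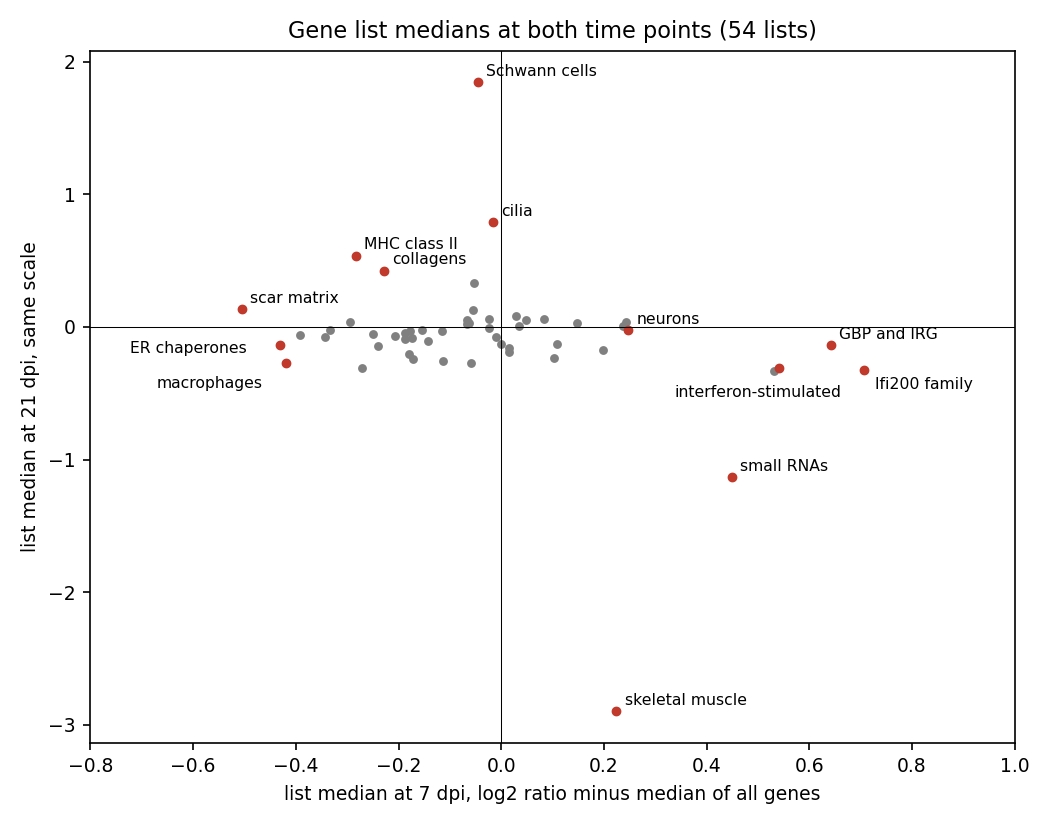
Median log2 ratio of each of 54 lists at 7 dpi (horizontal axis) and 21 dpi (vertical axis), centred on the median of all kept genes at each time, over genes kept at both times. Red points are labelled lists and grey points the others; without centring every 21 dpi value would be lower by the median of -0.42, which puts scar matrix below 0. The interferon-stimulated genes stand at 0.54 and -0.31, the skeletal muscle list at 0.22 and -2.90.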

How the data were processed

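RNA-seq of 4 groups was used, with 1 deposited value per gene and group, and the 7 dpi comparison was described. The authors deposited FPKM plus 1, and 1 was subtracted. By the sources, reads were down-sampled to the shallowest library and processed with STAR 2.5.4b, Bowtie2 (given as 2.1.10 in the submitters' notes), SAMtools 0.1.7 and Cuffdiff 1.3.0. The methods also report a single replicate that aligned to the genome at a lower rate than the others. Its group is not named there, and its part in the values was not tested. The genome build is not given in the sources used here. The deposited table names the comparison ApoE3 versus ApoE4, and its first value was read as ApoE3, although the numbering of the columns would give the other reading. Its columns of the authors' fold changes, p-values and q-values, and a second deposited list of differentially expressed genes, were not used.

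Genes were kept if their FPKM averaged 1 or more over both groups. Ratios were taken on the log2 scale after a pseudocount of 1, and a fold of 1.3 was counted. Of 2 symbols listed more than once, the entry with the higher mean was kept. Symbols matched the mouse reference for 25503 of 25601 entries. The depth per gene is unknown, since FPKM do not keep counts, and no replicate check was possible, so no test was run.

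There were 62 gene lists. Members and lists were chosen with earlier results of these data known. Genes were named if they were in a list (as examples, those past 1.3-fold with the largest ratio and those with the highest mean FPKM, and other members chosen for their role after their values were seen), or were among the 10 with the largest ratio in each direction, or the 5 in each direction with a mean FPKM of at least 100. Some genes of the lists are not reported here. Lists were described by counts and medians beside those of all genes. Promoters came from RefSeq (GRCm38.p6), for 10969 of the 13949 kept genes. Alternatives were pseudocounts of 0.1 and 5, no minimum FPKM or one of 10, folds of 1.5 and 2, and centring on the median of all genes. Python 3.11.15, numpy 2.4.6, pandas 2.3.3 and matplotlib 3.10.9 were used, and the procedures were tested on simulated data.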

Additional observations from a re-analysis of the deposited data

Results flagged for a closer look

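In 7 of 54 lists compared, the median log2 ratio of ApoE3 over ApoE4, centred on all genes at each time and taken over at least 5 genes kept at both times, was at least 0.2 in size at 7 dpi and at 21 dpi with opposite signs. For 32 interferon-stimulated genes it was 0.54 at 7 dpi and -0.31 at 21 dpi, and for 10 Ifi200 genes 0.71 and -0.33. For 8 MHC class II genes it was -0.28 and 0.54, and for 17 collagen chains -0.23 and 0.42. The values of 5 neutrophil genes were 0.53 and -0.33, those of 6 skeletal muscle genes 0.22 and -2.90, and those of 8 small structural RNAs 0.45 and -1.13. Over all genes kept at 7 dpi, with those not kept at 21 dpi included, the 7 dpi median was 0.13 for 6 neutrophil genes and 0.18 for 7 skeletal muscle genes, under the size of 0.2. By centred values at 21 dpi, 9 Schwann cell genes had a median of 1.85, 13 cilia genes 0.79 and 16 pericyte and fibroblast genes 0.33 (-0.09 without centring), and the part of such cells in the values was not tested. The median of all genes was -0.42 at 21 dpi and 0.0018 at 7 dpi. Without centring, 7 of 7 still had opposite signs, and 5 of them a size of at least 0.2 at both times. The exceptions at 21 dpi were the collagen chains, at 0.0016, and the MHC class II genes, at 0.11. Other lists met the rule only without centring, so which lists are flagged depends on it. Among them were the neuronal markers at 0.25 and -0.45, the ion channels at 0.24 and -0.42, and the guanylate-binding and GTPase list at 0.64 and -0.56. These differences were not tested.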

How the results depend on the processing

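No paired analysis was possible because the mice of both genotypes are different animals, and leaving out a mouse was not possible with 1 value per group. The numbers of genes higher in ApoE3 and in ApoE4, 503 and 649, were 264 and 356 with a pseudocount of 5, 289 and 390 with a mean FPKM of at least 10, 155 and 200 at a fold of 1.5, and 41 and 24 at a fold of 2. A stricter fold or minimum and a larger pseudocount lower these counts by construction. At a fold of 2 the larger number was on the ApoE3 side, 63.1% of genes past the fold against 43.7% at 1.3-fold, and the cause was not tested. The counts stayed within 1.5 times with a pseudocount of 0.1 (632 and 817), with no minimum FPKM (534 and 672) and with centring (501 and 657). Of 307 list medians under 5 alternatives, 286 were within 0.1 of the value reported and 21 moved further. With a pseudocount of 5 the Ifi200 family had 0.55, the guanylate-binding and GTPase list 0.41, scar matrix -0.36, the endoplasmic reticulum list -0.36, chemokines -0.28, immediate early genes -0.18 (from -0.29) and platelet genes -0.46 (from -0.72). Of lists with at least 5 kept genes, 3 then had a median at least 1.3-fold higher in ApoE3 and 1 in ApoE4, instead of 4 and 4. Chemokines had -0.16 with no minimum FPKM and -0.27 with a mean FPKM of at least 10, where the cell cycle list had -0.45. The cause was not tested. The median of the small structural RNAs ran from 0.21 to 1.16, that of the neutrophil genes from 0.05 to 0.67 and that of the skeletal muscle genes from 0.09 to 0.76. In 4 cases a median changed sign, all with a reported size of at most 0.03, of which the regeneration-associated genes went from 0.02 to -0.12 with a mean FPKM of at least 10. Of 11 lists with a median past 1.3-fold, 47 of 54 values under alternatives were still past it. At a fold of 2, counted in the direction of each list median, 9 of 38 interferon-stimulated genes and 2 of 10 Ifi200 genes were past it. The endoplasmic reticulum list had 1 of 26, and the guanylate-binding and GTPase, scar matrix, collagen and macrophage lists had 1 each. Chemokines, neuronal markers and cell cycle genes had 0, and the neuronal markers also had 0 at a fold of 1.5.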

Other observations

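Some genes past 1.3-fold lay side by side on a chromosome. In windows of 10 neighbouring genes by RefSeq order, over 13831 kept genes with a position, runs with at least 5 genes past the fold in 1 direction were looked for, and 7 were found, 6 higher in ApoE3 and 1 in ApoE4. Each run is counted from its first to its last gene past the fold, so the shares given for the runs are raised by that choice. The genes named here were chosen after their values were seen. The run on the ApoE4 side was a group of chemokine genes in which 5 of 5 were past the fold, Ccl9, Ccl6, Ccl3, Ccl4 and the neighbouring Wfdc17, with 27.1 FPKM in ApoE3 against 44.4 in ApoE4. Among the runs on the ApoE3 side were families of the interferon response, with 7 of 8 from Rasal1 through the Oas genes, and 5 of 6 from Zfp951 through the Gbp genes. Rasal1, which lies next to the Oas genes and encodes a Ras GTPase activator, had 44.05 FPKM in ApoE3 against 29.8 in ApoE4. The run from Parp14 to Iqcb1 had 6 of 11 genes past the fold, and Iqcb1, a cilium gene, had 95.2 FPKM in ApoE3 against 50.3 in ApoE4. The run from Pde8b to Fam169a had 6 of 12, and Pde8b, which breaks down cyclic AMP, had 349 FPKM in ApoE3 against 257 in ApoE4. In the run from Plac9a to Duxbl3 all 9 of 9 genes were past the fold, and they include near-identical copies between which reads can be split, so their values are uncertain. The causes of these runs were not tested.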
